A study of Danio rerio with 4 samples.

Results

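Collagen genes outside cartilage were followed in heads of zebrafish larvae at 5 dpf, in siblings and in noc4l mutants. A gene was a member when its symbol in the Ribo-seq table began with a collagen chain name, and the 7 collagens of cartilage (col2a1a, col9a1a, col9a2, col9a3, col10a1a, col11a1a and col11a2) were left out. This gave 47 of the 25196 gene IDs of that table, with 45 different symbols, because col6a3 and col19a1 each had 2 IDs. All 47 IDs were also in the RNA-seq table of 26662 IDs. By collagen type, 12 were fibrillar, 9 belonged to the basement membrane and 26 were of other types.

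Collagens are secreted proteins built of chains wound around each other into a triple helix. Fibrillar collagens are trimmed outside the cell and pack into the fibrils of skin, tendon and bone, whereas basement membrane collagens form sheets under epithelia and around vessels and muscle. The remaining types sit on fibril surfaces, form beaded filaments and small lattices, or anchor epithelia to the tissue below. The heads of larval zebrafish hold all of these tissues, and much of their collagen I comes from the epidermis, fibroblasts and bone-forming cells.

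The study compared 4 libraries of fish of the AB strain, namely RNA-seq of sibling heads, RNA-seq of mutant heads, Ribo-seq of sibling heads and Ribo-seq of mutant heads. noc4l encodes a nucleolar protein needed to make the small ribosomal subunit. The mutants carried a deletion in the fourth exon of noc4l, made with CRISPR/Cas9, that leads to an early stop codon, the allele the study chose for its later experiments after making a second one. The labels name neither the allele nor a treatment. The labels call the sibling genotype WT, whereas the methods call these fish siblings, and the sources used here do not give the number of fish pooled for a library. Heads for RNA-seq and for Ribo-seq were collected and stored in different ways. The methods describe cycloheximide treatment, RNase digestion and a sucrose gradient for Ribo-seq, while the labels describe the same poly(A) library protocol for both assays. noc4l, the check of the labels, had 443 RNA counts in siblings against 45 in mutants, and 93 against 15 footprint counts.

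Each group held 1 library, so there is no replicate check, no test was made, and all intervals cover counting error only. Estimated counts summed to 15018488 and 17395024 in the sibling and mutant RNA-seq libraries and to 12181046 and 19823848 in the Ribo-seq libraries. They were scaled by TMM in edgeR, and a log2 ratio of mutant to sibling is given with its 95% counting interval in brackets. Translation efficiency is the footprint log2 ratio minus the RNA log2 ratio. A gene counted as measured when the sibling and mutant libraries of an assay together held at least 100 of its counts, and as higher or lower when they differed by 2-fold or more. The median of all measured genes was 0.01 for RNA, 0.02 for footprints and -0.01 for translation efficiency. With total counts as the scale these medians were 0.09, 0.74 and 0.62, so a direction in footprints or translation efficiency is one relative to the median gene. In the Ribo-seq libraries 3 loci outside the collagens each held over 5% of the counts of a library, and the most abundant of them held 31.5% of all sibling footprints and 8.56% of those in mutants. In whole heads, fewer cells of a type and less RNA per cell cannot be told apart.

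The collagens as a set had a summed ratio close to that of the median gene, while single types lay on either side of it. Summed over all 47 members, the log2 ratio was -0.016 (-0.027 to -0.0042) for RNA and 0.024 (0.012 to 0.036) for footprints. Members took 0.742% of the RNA counts of siblings and 0.777% of those of mutants. Of all footprint counts they took 0.620% in siblings and 1.03% in mutants, and of those outside the 3 abundant loci 1.22% and 1.26%. Within this sum, the collagen I chains had ratios below 0 in both assays and the collagen XII genes ratios above 0.

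Few members differed by 2-fold. Of 38 members measured in RNA, col12a1a and col28a2a were higher and 0 were lower. Of all genes measured 3.14% were higher and 6.16% lower, 9.30% together. Of 41 members measured in footprints, 0 were higher and col5a2b, col4a3 and col28a1a were lower, against 1.89% of all genes higher and 3.61% lower, 5.51% together. Of 37 members measured in translation efficiency, 0 were higher and col28a2a was lower, against 3.55% of all genes higher and 3.18% lower, 6.73% together. The median log2 ratio of the measured members was -0.05 for RNA, -0.06 for footprints and -0.10 for translation efficiency.

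**Figure D1:**
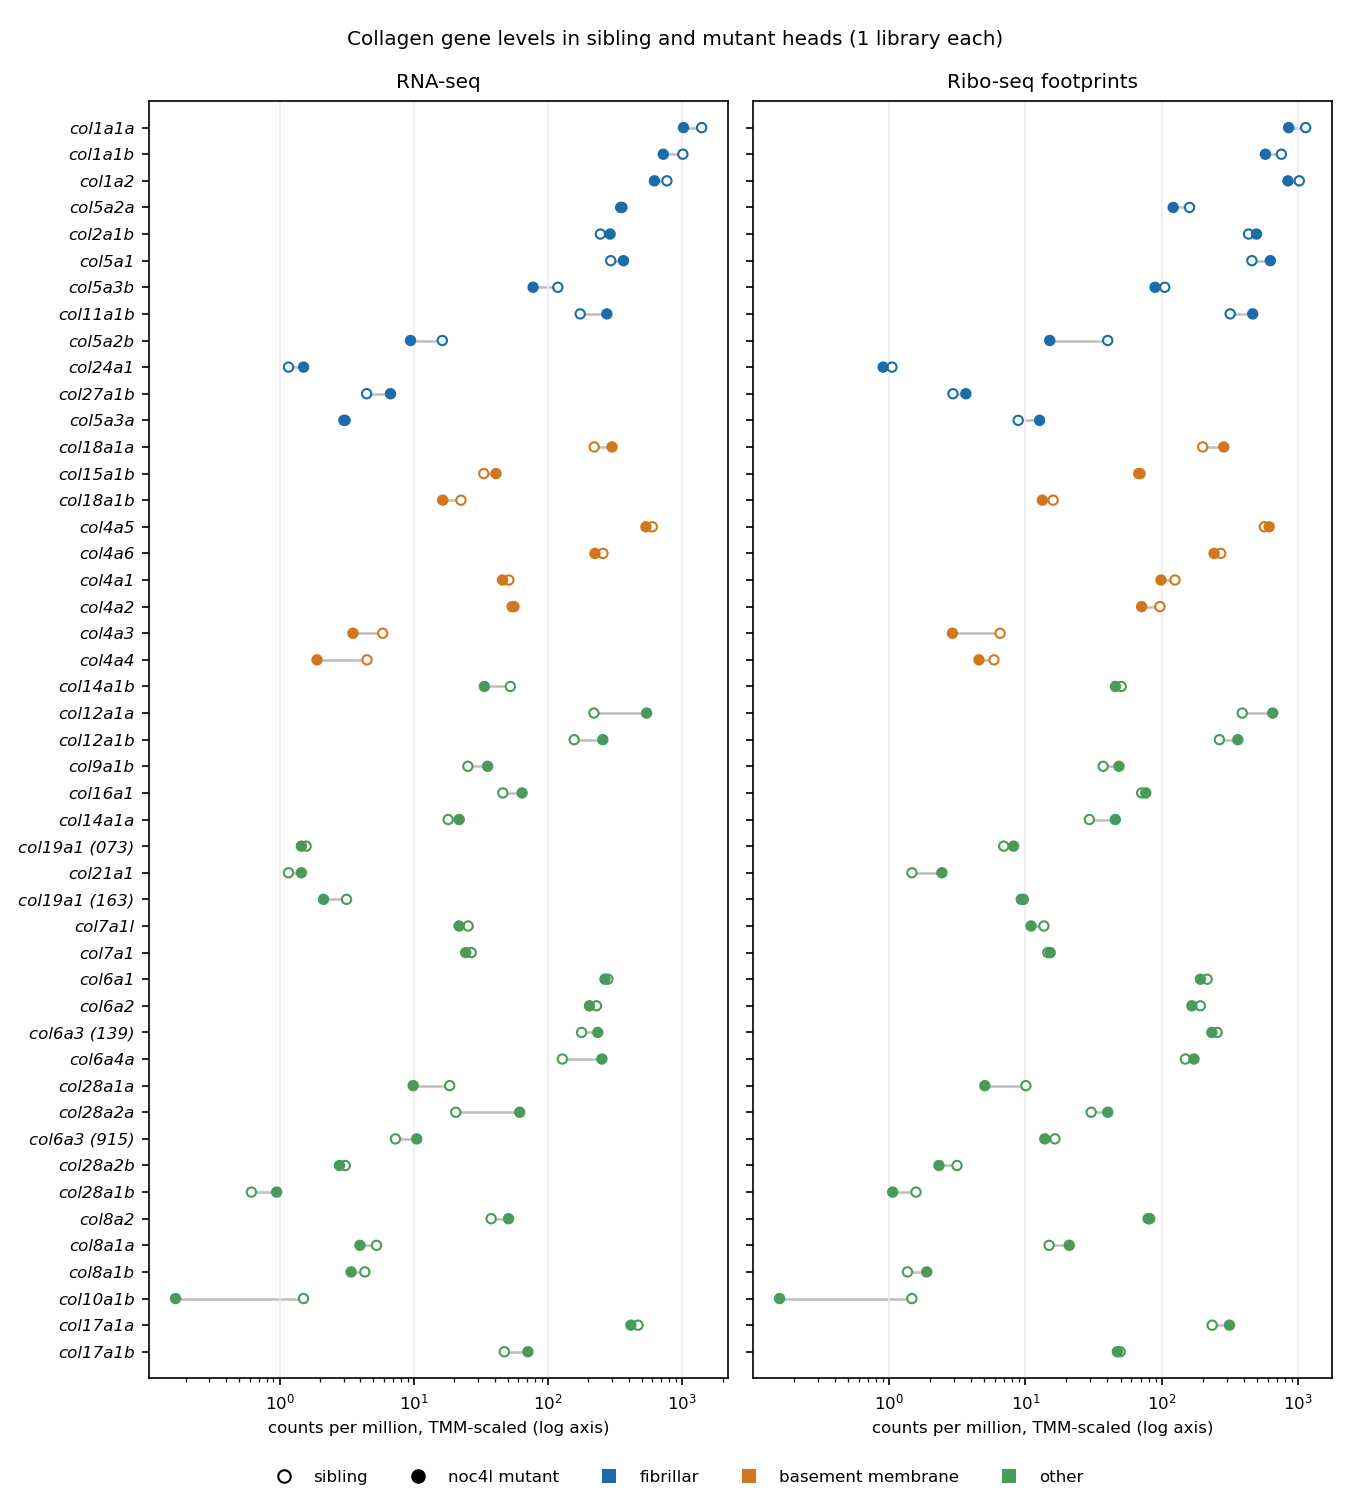
TMM-scaled CPM, counts relative to library depth (log axis), of the 47 collagen genes in RNA-seq (left) and Ribo-seq (right), open circles for the sibling library and filled circles for the mutant library, coloured by class. The values are not divided by gene length, so they are to be read along a line and not between lines. Most pairs of circles lie close together. Among genes with at least 100 counts, col12a1a and col28a2a lie far apart in RNA and col5a2b in footprints. The circles of col10a1b, which is under that minimum, lie furthest apart in both panels. The 2 IDs of col6a3 and of col19a1 are marked by the last 3 digits of the ID.

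The fibrillar collagens form the rope-like fibrils that carry tension. Collagen I, the main collagen of skin and bone, is made in zebrafish from the chains of col1a1a, col1a1b and col1a2, which were the 3 most abundant members per length in every library. In RNA-seq the sibling and mutant libraries held 20373 and 18296 counts of col1a1a (234 and 181 FPKM), a log2 ratio of -0.45 (-0.48 to -0.42). The counts were 14756 and 12929 for col1a1b, a log2 ratio of -0.48 (-0.52 to -0.45), and 11225 and 11112 for col1a2, a log2 ratio of -0.31 (-0.35 to -0.27). All 3 chains thus lay below the median gene, and none passed 2-fold. Their footprint ratios were close to those of RNA. The log2 footprint ratio was -0.41 for col1a1a, from 10810.2 sibling and 21643 mutant counts, -0.39 for col1a1b and -0.28 for col1a2. Translation efficiency of the collagen I chains differed by at most 0.10 on the log2 scale, the value of col1a1b.

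Summed, the collagen I chains had a log2 ratio of -0.42 (-0.44 to -0.41) for RNA and -0.36 (-0.38 to -0.34) for footprints. Markers of bone-forming cells, which make collagen I, had 8 measured genes of which 0 lay above 0 in RNA, with a median log2 ratio of -0.53. Their summed level was 153 CPM, TMM-scaled counts relative to library depth, in sibling and 112 CPM in mutant RNA-seq, and bglap, the osteocalcin gene, was at 0 in all 4 libraries. Epidermis markers, of a tissue that also makes collagen I in larvae, were above 0 in 6 of 25 genes (median -0.33). Their summed level was 21584 and 17415 CPM, and the list was not split by layer of the epidermis. krt95 of this list was at 0 in both mutant libraries, but it was under the minimum of counts in both assays. It was thus not among the 25 genes measured in RNA, and no direction is read from it. In contrast, 13 of 14 measured fibroblast and tendon markers lay above 0 (median 0.52), with summed levels of 748 and 1097 CPM. The part of these cells in the collagen I values was not tested.

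Collagen V and the related collagen XI start fibrils and set their width. col5a1, the pro-alpha1 chain of collagen V, had 4280 and 6531 RNA counts, a log2 ratio of 0.32 (0.26 to 0.37), and a footprint log2 ratio of 0.45 (0.40 to 0.50). Its partner chain gene col5a2a had 5194 and 6226 RNA counts, a log2 ratio of -0.03 (-0.09 to 0.02), and a footprint log2 ratio of -0.40 (-0.49 to -0.31). The footprints of the partner chains therefore moved apart. Per length, col5a1 had 2.27 times the TPM of col5a2a in the sibling library and 4.01 times in the mutant library, and the log2 change of their count ratio was 0.85 (0.75 to 0.95). In RNA this change was 0.35 (0.27 to 0.43). A ratio of genes within a library does not depend on how the libraries are scaled.

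col5a2b, the duplicate of col5a2a, had the lowest footprint ratio of the measured members. It had 238 and 169 RNA counts and 382 and 383 footprint counts, and its log2 ratio was -0.79 (-1.08 to -0.50) for RNA and -1.41 (-1.62 to -1.20) for footprints. The count of footprints hardly differed, but the mutant library was deeper and had the higher TMM factor. With total counts as the scale, the log2 footprint ratio of col5a2b was -0.70, which is inside 2-fold, while the median of all measured genes was 0.74. Total counts include the 3 abundant loci, and under TMM without these loci the ratio of col5a2b was -1.41. col5a3b, a further collagen V chain gene, had 1727 and 1385 RNA counts, with a log2 ratio of -0.61 (-0.72 to -0.51) and a footprint log2 ratio of -0.24 (-0.34 to -0.13).

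The remaining fibrillar genes had RNA ratios above 0 or were scarce. col2a1b, a duplicate of the main cartilage collagen gene, had 3582 and 5192 RNA counts, a log2 ratio of 0.24 (0.18 to 0.30) and a footprint log2 ratio of 0.19 (0.14 to 0.24). col11a1b, a collagen XI chain gene and duplicate of the cartilage gene col11a1a, had 2536 and 4912 RNA counts, a log2 ratio of 0.66 (0.59 to 0.73) and a footprint log2 ratio of 0.55 (0.49 to 0.61). These genes thus lay on the side of the cartilage collagens. col27a1b, a minor fibrillar collagen gene, had 65 and 120 RNA counts and a log2 ratio of 0.59 (0.14 to 1.05). col5a3a had 44 and 55 RNA counts, under the minimum, and a footprint log2 ratio of 0.51 (0.18 to 0.89). Over the fibrillar class the median log2 ratio was -0.17 for RNA in 10 measured genes and -0.24 for footprints in 11.

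**Figure D2:**
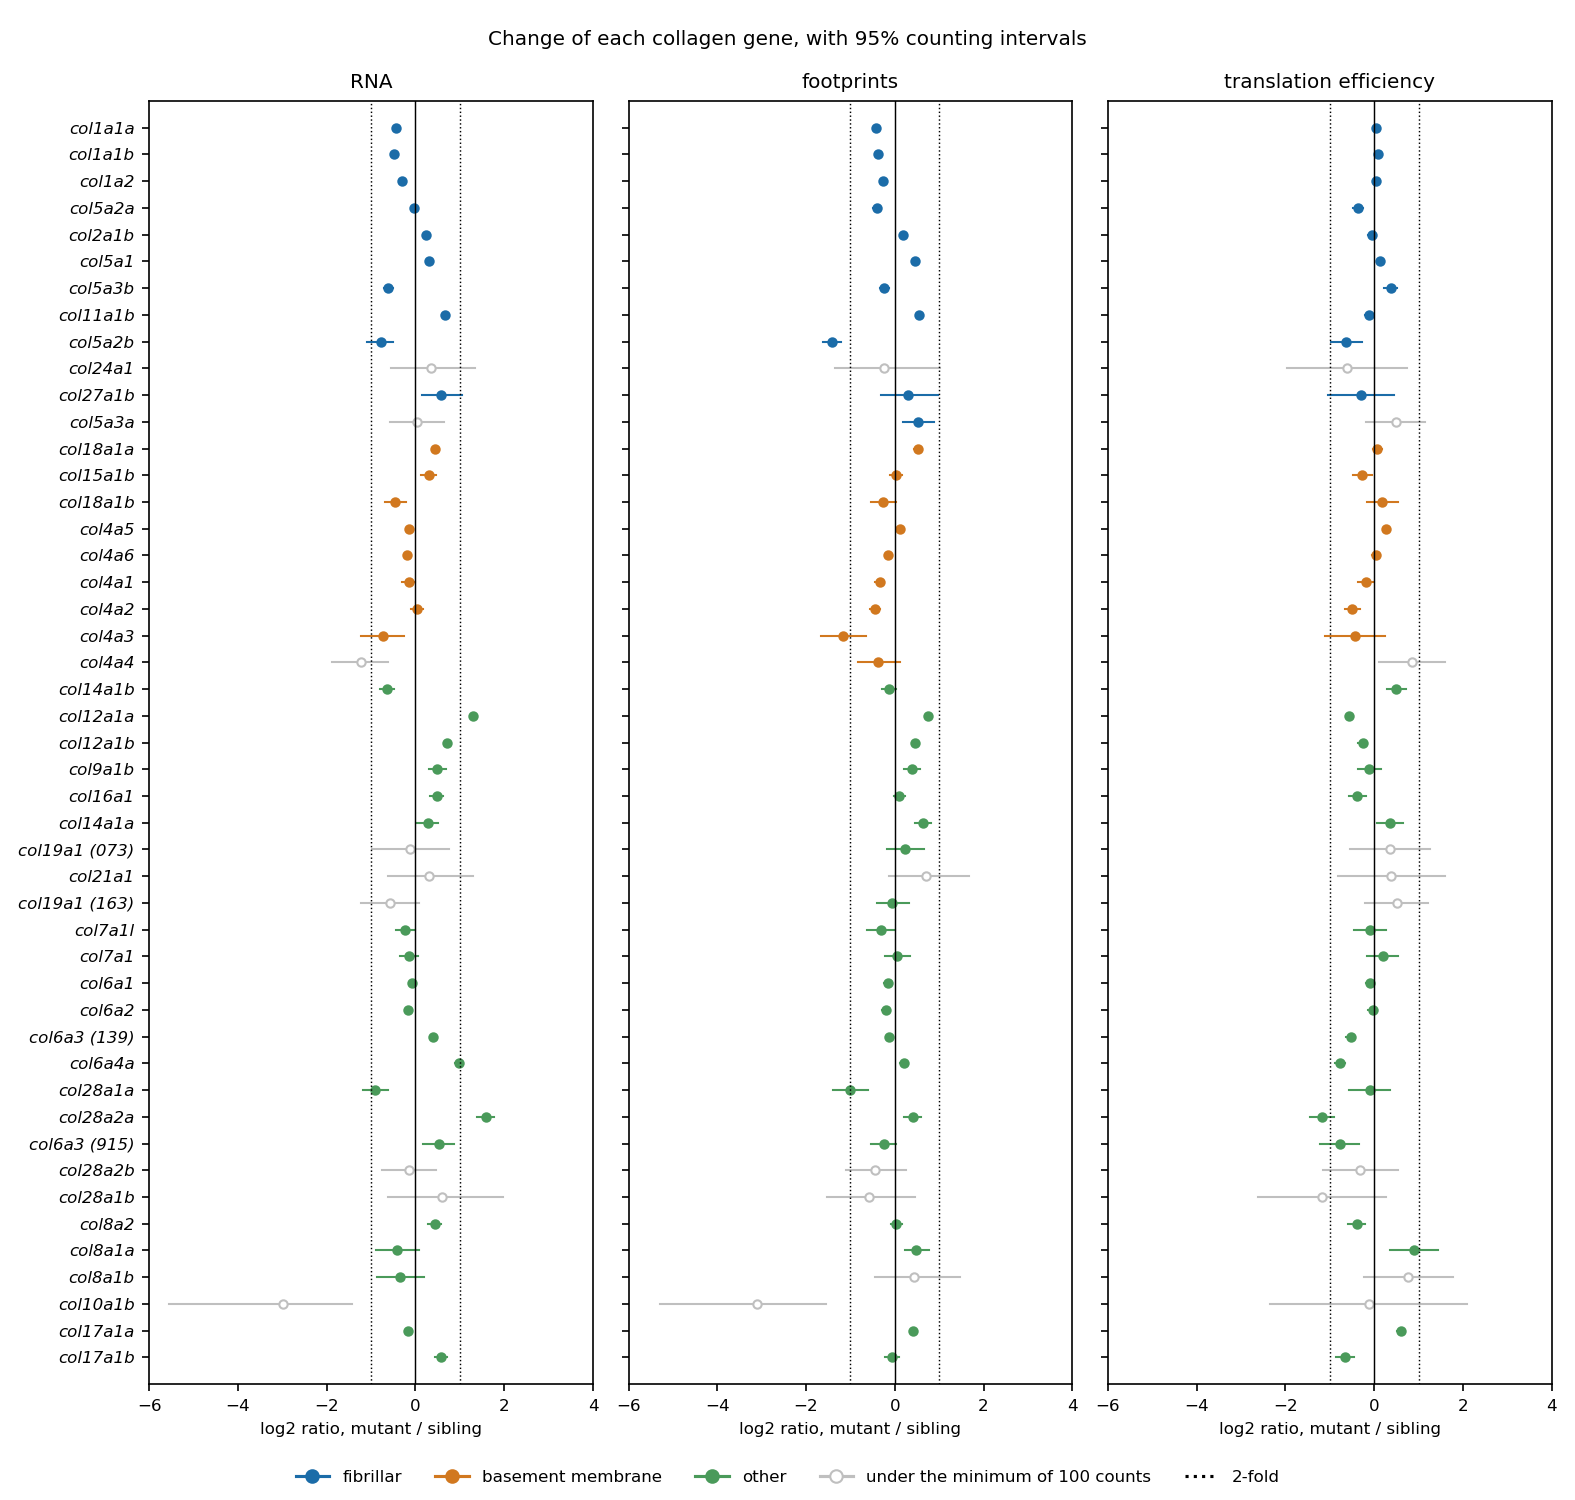
Log2 ratio of mutant to sibling of each of the 47 collagen genes in RNA (left), footprints (middle) and translation efficiency (right), with 95% counting intervals as bars. Grey open circles are genes under 100 counts and dotted lines mark 2-fold. Most genes lie between the dotted lines. Among measured genes, col12a1a at 1.30 and col28a2a at 1.58 lie to the right of them in RNA. In footprints col5a2b at -1.41, col4a3 at -1.16 and col28a1a at 0.499 of its sibling level lie on or to the left of them. In translation efficiency col28a2a, at -1.18, lies to the left of them. Of the grey circles, col10a1b lies to the left of them in RNA and footprints, col4a4 in RNA and col28a1b in translation efficiency.

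Among basement membrane collagens, the type IV chains form the network of the membrane in 3 sets of partner genes, and col15a1b and the col18a1 genes encode multiplexins, which carry sugar side chains and sit in or next to it. Of 5 type IV genes measured in RNA 4 lay below 0. col4a5, the most abundant of them, had 8730 and 9606 RNA counts (96.2 and 91.3 FPKM), a log2 ratio of -0.16 (-0.20 to -0.11), and a footprint log2 ratio of 0.12 (0.07 to 0.16). Its partner col4a6 had 3746 and 4003 RNA counts, a log2 ratio of -0.20 (-0.26 to -0.13), and a footprint log2 ratio of -0.16 (-0.23 to -0.09). The count ratio of col4a5 to col4a6 changed by 0.04 (-0.03 to 0.12) in RNA and by 0.28 (0.20 to 0.36) in footprints on the log2 scale.

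The col4a1 and col4a2 chains, which form the common basement membrane network around vessels, had footprint ratios below that of the median gene. For col4a1 745 and 820 RNA counts gave a log2 ratio of -0.16 (-0.30 to -0.01), and the footprint log2 ratio was -0.34 (-0.44 to -0.24). For col4a2 789 and 997 RNA counts gave 0.04 (-0.09 to 0.18), and the footprint log2 ratio was -0.45 (-0.56 to -0.33). The footprint ratio of these partners to each other changed by 0.10 (-0.05 to 0.26), an interval that spans 0. Endothelium markers, a cell type with such a membrane, lay above 0 in 10 of 22 genes in RNA (median -0.05) and in 10 of 18 in footprints (median 0.09), with summed RNA levels of 456 and 473 CPM. No gene of this list was at 0, and the part of these cells was not tested.

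col4a3 and col4a4, the chains of the kidney and inner ear membrane in mammals, were scarce in heads. col4a3 had 85.6 and 63 RNA counts and 62.1 and 74.1 footprint counts, a log2 ratio of -0.73 (-1.24 to -0.26) for RNA and -1.16 (-1.67 to -0.65) for footprints. col4a4 had 65.4 and 34 RNA counts, under the minimum, and a footprint log2 ratio of -0.37 (-0.84 to 0.12). These low counts leave wide intervals. In the GRCz12tu annotation of RefSeq col4a1 and col4a2, col4a3 and col4a4, and col4a5 and col4a6 are each direct neighbours. The deposited FPKM of col4a3 were 0.77 and 1.26, opposite in direction to its counts. Its footprint log2 ratio was 0.12 on the deposited TPM with 1 added, a scale on which 40 of 41 measured members lay above 0.

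The multiplexins did not share a direction. col18a1a, a gene of collagen XVIII, whose cleaved end is endostatin, had 3224 and 5366 RNA counts, a log2 ratio of 0.44 (0.38 to 0.50) and a footprint log2 ratio of 0.51 (0.44 to 0.59). Its duplicate col18a1b had 328 and 294 RNA counts and a log2 ratio of -0.45 (-0.68 to -0.22). col15a1b, a gene of collagen XV, had 485 and 733 RNA counts, a log2 ratio of 0.30 (0.13 to 0.47) and a footprint log2 ratio of 0.03 (-0.10 to 0.17). Over the basement membrane class the median log2 ratio was -0.16 for RNA and -0.27 for footprints.

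The fibril-associated collagens with interrupted triple helices, FACITs, bind fibril surfaces and link them to other matrix. Both genes of collagen XII, a FACIT of tendons, fascia and dense connective tissue, had ratios above 0 in both assays, of which that of col12a1a in RNA passed 2-fold. col12a1a had 3208 and 9717 RNA counts (25.8 and 62.2 FPKM), a log2 ratio of 1.30 (1.25 to 1.36). With 3704 and 16525 footprint counts it had a footprint log2 ratio of 0.74 (0.69 to 0.79), so that its translation efficiency was -0.56 (-0.64 to -0.49). Its duplicate col12a1b had 2285 and 4583 RNA counts, a log2 ratio of 0.71 (0.64 to 0.78), and a footprint log2 ratio of 0.45 (0.39 to 0.51). The ratio of both genes was smaller in footprints than in RNA. Per length, col12a1a was among the 10 most abundant members of the mutant RNA-seq library at rank 7, and it was not among the 10 of the sibling library. In footprints it was among the 10 in both, at rank 8 in the sibling and rank 7 in the mutant library.

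Fibroblast and tendon markers, listed for cell types that make collagen XII, mostly lay above 0 in RNA, as given for collagen I. Of 14 measured, 1 was higher by 2-fold and 0 lower, against 3.14% and 6.16% of all genes. In footprints 11 of 15 of them lay above 0 (median 0.33), with summed levels of 557 and 671 CPM, and none was at 0 in any library. Their part in the collagen XII values was not tested.

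The RNA ratios of the collagen XIV genes, FACITs of skin and tendon, lay on opposite sides of 0. col14a1a had 263 and 390 RNA counts, a log2 ratio of 0.27 (0.05 to 0.51), and a footprint log2 ratio of 0.63 (0.44 to 0.83). col14a1b had 765 and 600 RNA counts, a log2 ratio of -0.64 (-0.80 to -0.49), and a footprint log2 ratio of -0.14 (-0.30 to 0.02). col9a1b, a gene of collagen IX and duplicate of a cartilage gene, had 369 and 635 RNA counts and a log2 ratio of 0.49 (0.30 to 0.68). col16a1, a gene of collagen XVI, had 672 and 1147 RNA counts and a log2 ratio of 0.48 (0.34 to 0.62), while its deposited FPKM of 8.54 and 21.6 differed by more, for a reason that was not tested. The 2 IDs of col19a1 and col21a1 had at most 46 RNA counts in a library. Of 6 measured FACIT genes 5 had an RNA log2 ratio above 0, with a median of 0.48, and of 8 measured in footprints 6 did, with a median of 0.31.

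Collagen VI forms beaded filaments around cells, such as those of muscle and tendon, and collagen XXVIII shares its von Willebrand factor A domains. The partner chains of collagen VI had like footprint ratios. col6a1 had 4073 and 4754 RNA counts, a log2 ratio of -0.07 (-0.13 to -0.01), and col6a2 had 3349 and 3645, a log2 ratio of -0.17 (-0.24 to -0.10). The more abundant ID of col6a3 had 2594 and 4202 RNA counts, a log2 ratio of 0.40 (0.33 to 0.47). Their footprint log2 ratios were -0.16 for col6a1, -0.21 for col6a2 and -0.13 for that ID of col6a3. The log2 count ratio of col6a3 to col6a1 changed by 0.47 (0.38 to 0.57) in RNA and by 0.03 (-0.07 to 0.13), an interval that spans 0, in footprints. Per length, from the deposited FPKM, this ratio was 0.525 in sibling and 0.626 in mutant RNA-seq, a smaller change than that of the counts. The other ID of col6a3 had 107 and 188 RNA counts, and it cannot be said how reads were divided between the IDs.

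col6a4a, a further collagen VI chain gene, had 1867 and 4510 RNA counts and lay just inside the 2-fold limit, with a log2 ratio of 0.98 (0.90 to 1.06). Its footprint log2 ratio was 0.21 (0.12 to 0.30) and its translation efficiency -0.77 (-0.89 to -0.65). The RNA ratios of the measured collagen XXVIII genes lay on opposite sides of 0. col28a2a had 300 and 1100 RNA counts, the highest RNA log2 ratio of the measured members at 1.58 (1.40 to 1.77), but a footprint log2 ratio of 0.40 (0.21 to 0.60) from 289 and 1020 counts. Its translation efficiency of -1.18 (-1.44 to -0.91) was the lowest of the measured members. col28a1a had 270 and 177 RNA counts, a log2 ratio of -0.90 (-1.18 to -0.62), and 96 and 128 footprint counts. Its footprints stood at 0.499 times the sibling level (0.380 to 0.658). On the deposited TPM with 1 added, the footprint log2 ratio of col28a1a was 0.077. On that scale 40 of 41 measured members lay above 0, against 20 under TMM. The change of sign was thus not particular to col28a1a.

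All 7 measured genes of the collagen VI and XXVIII group had a translation efficiency below 0, from -1.18 to -0.03, with a median of -0.53, and the intervals of 4 lay wholly below 0. Most skeletal muscle markers also had a translation efficiency below 0. In RNA 21 of 25 of them lay above 0 (median 0.43), in footprints 6 of 25 (median -0.45) and in translation efficiency 2 of 25 (median -0.81). Their summed level was 68431 and 91107 CPM in RNA-seq and 15460.4 and 11144 in Ribo-seq, and no marker was at 0. Of the fibroblast and tendon markers 5 of 14 had a translation efficiency above 0 (median -0.18). The part of muscle, or of fibroblasts and tendon, in the collagen VI values was not tested.

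**Figure D3:**
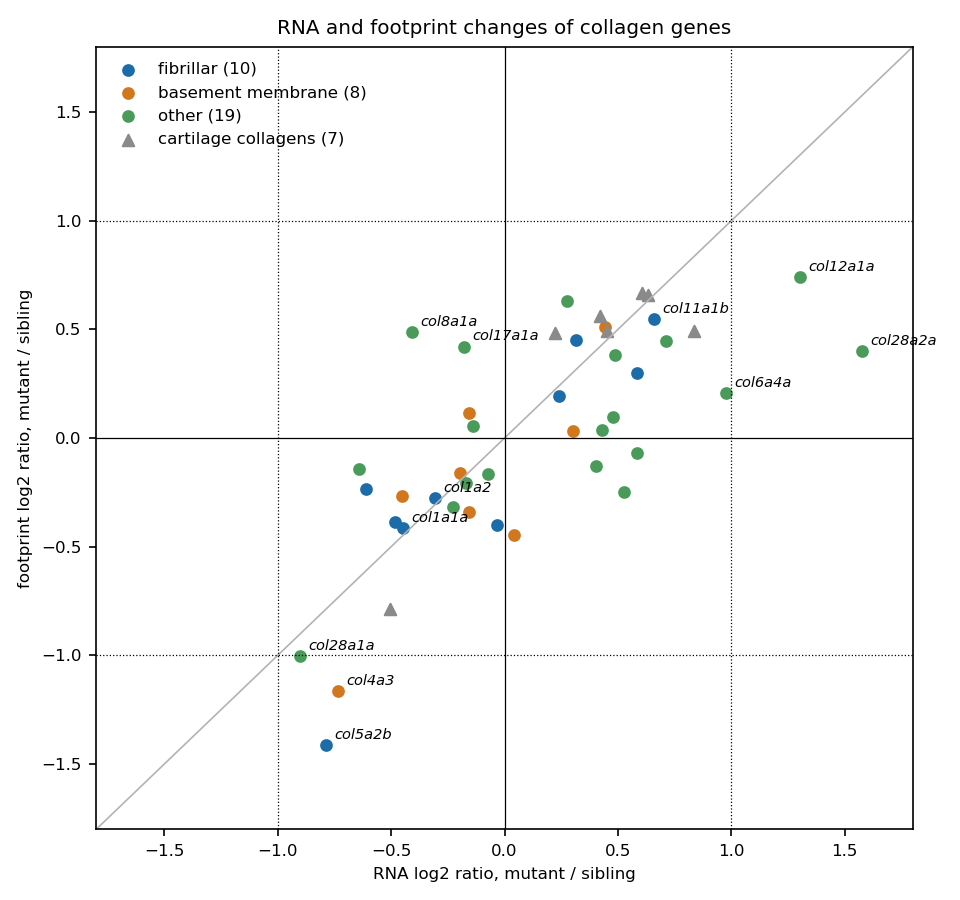
Footprint log2 ratio (vertical) against RNA log2 ratio (horizontal), mutant over sibling, of the 37 collagen genes measured in both assays, coloured by class, and of the 7 cartilage collagens (grey triangles). The grey diagonal marks equal ratios and dotted lines 2-fold. Of the 37 genes 29 have the same sign in both assays, while col28a2a, col6a4a and col12a1a lie below the diagonal and col8a1a and col17a1a above it.

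The short-chain collagens VIII and X build lattices, such as those of the cornea and of hypertrophic cartilage. col8a2 had 550 and 909 RNA counts, a log2 ratio of 0.43 (0.28 to 0.59), and a footprint log2 ratio of 0.04 (-0.08 to 0.16). col8a1a had 77 and 71 RNA counts but 142 and 533 footprint counts, and its translation efficiency of 0.90 (0.36 to 1.43) was the highest of the measured members. col8a1b had 63 and 61 RNA counts, with footprints under the minimum. col10a1b, the duplicate of the hypertrophic cartilage gene col10a1a, had 22 and 3 RNA counts and 14 and 4 footprint counts, under the minimum in both assays.

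Collagen XVII is a transmembrane protein of hemidesmosomes, which fasten basal epidermal cells to the basement membrane, and collagen VII forms the anchoring fibrils beneath. col17a1a had 6842 and 7417 RNA counts (96.0 and 89.9 FPKM), a log2 ratio of -0.18 (-0.23 to -0.13), but a footprint log2 ratio of 0.42 (0.35 to 0.49). Its duplicate col17a1b had 690 and 1267 RNA counts, a log2 ratio of 0.58 (0.45 to 0.72), and a footprint log2 ratio of -0.07 (-0.22 to 0.09). The translation efficiency was 0.60 (0.52 to 0.68) for col17a1a and -0.65 (-0.85 to -0.45) for col17a1b, so that the duplicates crossed between the assays. col7a1 had 391 and 436 RNA counts and a log2 ratio of -0.14 (-0.34 to 0.06), while its deposited FPKM of 4.34 and 2.40 differed by more, and col7a1l had 371 and 389 and a log2 ratio of -0.23 (-0.43 to -0.02). Epidermis markers, again not split by layer, were above 0 in 8 of 24 genes in footprints (median -0.26), with summed levels of 8998 and 7039 CPM. The part of epidermal cells was not tested.

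Members under the minimum in both assays were col24a1, with 17 and 27 RNA counts, col21a1, with 17 and 26, col28a2b, with 45 and 50, col28a1b, with 9 and 17, and col10a1b.

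Zebrafish kept many collagen genes as duplicates, and their relative use can be read without any library scaling. Pairs of a and b copies were compared over all collagen genes, cartilage genes included, wherever both copies were measured. In RNA the interval lay wholly on the side of the a copy in 5 of 10 pairs and on the side of the b copy in 2, and in footprints on the side of the a copy in 8 of 10 pairs and of the b copy in 0. Duplicate genes other than collagens were not counted this way, so it is not known whether these counts are particular to collagens. The ratio shifted to the a copy in both assays for collagen XVIII, by 0.89 (0.66 to 1.13) in RNA and 0.78 (0.49 to 1.06) in footprints, and for collagen XIV, by 0.92 (0.65 to 1.19) and 0.77 (0.53 to 1.02). The col5a2 pair shifted the same way, by 0.76 (0.47 to 1.04) and 1.01 (0.79 to 1.24). The col17a1 pair shifted to the b copy in RNA, by -0.76 (-0.90 to -0.62), and to the a copy in footprints, by 0.49 (0.32 to 0.66). The col1a1 pair kept its ratio within counting error, with changes of 0.04 (-0.01 to 0.08) and -0.03 (-0.08 to 0.03). How reads were divided between near-identical stretches of such copies is not known from the sources used, so these values carry that uncertainty.

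**Figure D4:**
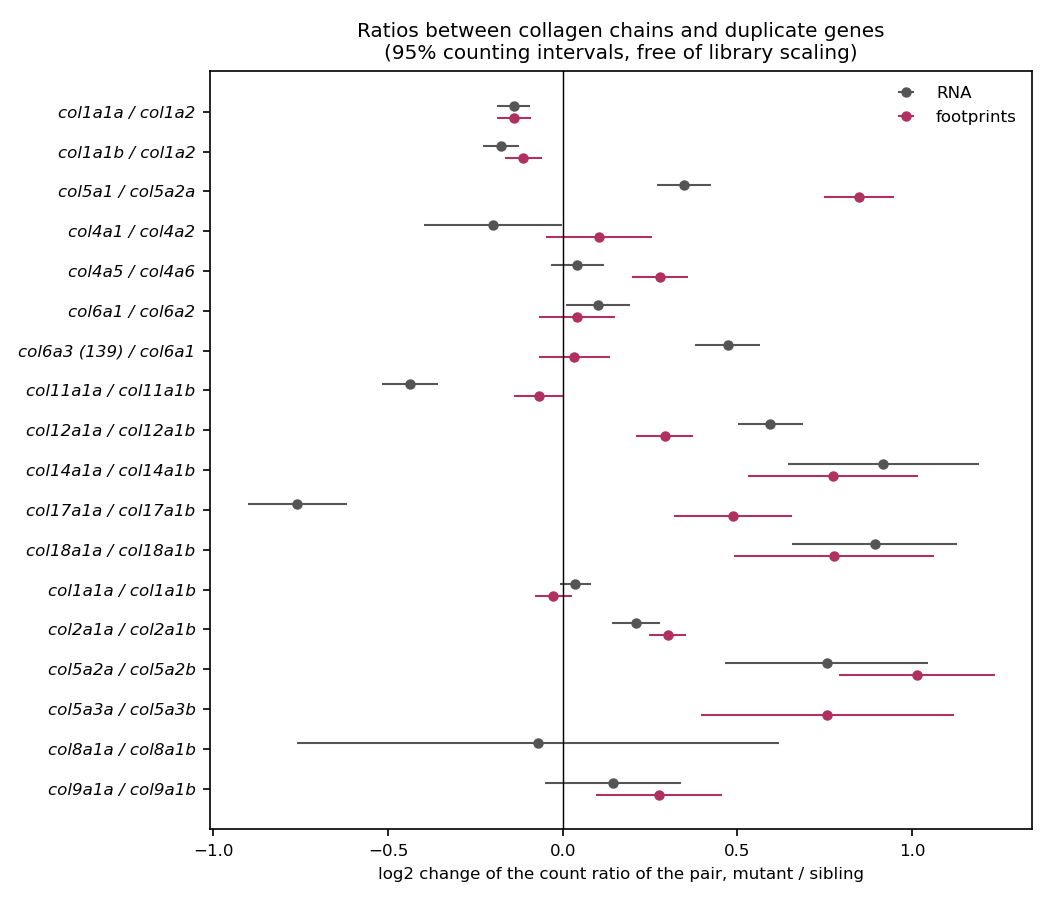
Log2 change, mutant over sibling, of the count ratio between chains of one molecule and between duplicate genes, in RNA (dark grey) and footprints (red), with 95% counting intervals as bars and only where both genes had at least 100 counts. The col5a1 to col5a2a ratio is higher in the mutant libraries, most in footprints at 0.85, the col17a1 pair lies on opposite sides of 0 in the 2 assays, and the col1a1 pair lies at 0.

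The cartilage collagens, the group most alike, mostly lay on the other side of 0 from collagen I. Of the 7 cartilage genes 6 had log2 ratios above 0 in both assays, with medians of 0.45 for RNA and 0.49 for footprints. The main cartilage collagen gene col2a1a had 15236 and 25537 RNA counts and a log2 ratio of 0.45, whereas col10a1a, a gene of hypertrophic cartilage and in zebrafish also of bone-forming cells, had 6018 and 5199 and a log2 ratio of -0.50. For the 7 genes summed, the ratio to the 3 collagen I chains was 0.890 in siblings and 1.52 in mutants in RNA counts, a log2 change of 0.78 (0.75 to 0.80), and 2.13 and 3.71 in footprint counts, a change of 0.80 (0.78 to 0.83). Measured the same way against collagen I, the log2 change was 1.51 (1.46 to 1.56) in RNA and 0.99 (0.94 to 1.03) in footprints for collagen XII, 0.66 (0.62 to 0.70) and 0.27 (0.22 to 0.31) for collagen VI, and 0.45 (0.41 to 0.49) and 0.52 (0.48 to 0.56) for collagen V. For collagen IV it was 0.26 (0.23 to 0.30) and 0.31 (0.27 to 0.34). These sums were set against collagen I after its values were seen. Chondrocyte markers lay above 0 in 15 of 19 genes in RNA (median 0.55), with summed levels of 1599 and 2651 CPM and none at 0, and their part was not tested.

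Collagen messages carried many footprints for their RNA. In the sibling libraries 30 of 37 members had more footprints per RNA count than the median gene, with a median of 0.66 on the log2 scale, and in the mutant libraries 28 of 37, with a median of 0.64. The ratio is free of gene length only as far as both assays cover the same stretch of a gene. Of the 37 members col8a1a stood highest in the sibling libraries at 1.93 and col5a2a lowest at -0.72. The trait was not particular to collagens outside cartilage. In the sibling libraries the cartilage collagens all lay above the median gene, from 0.41 for col11a1a to 2.27 for col2a1a. Of the collagen I chains col1a2 stood at 0.85, above col1a1a at 0.14 and col1a1b at 0.01, and this order was the same in the mutant libraries, at 0.88, 0.18 and 0.12. Across the 37 genes the RNA and footprint log2 ratios had a Pearson correlation of 0.70 and a Spearman correlation of 0.66, as a description over genes, which are not replicates.

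The genes that fold and modify collagens mostly lay above 0 in footprints. In the list of modification and folding genes, 23 of 24 measured genes had a footprint log2 ratio above 0, with a median of 0.50, and 17 of 24 had an RNA log2 ratio above 0, with a median of 0.22. In RNA 3 of 24 were higher and 1 lower by 2-fold, against 3.14% and 6.16% of all genes, and in footprints 2 were higher and 0 lower, against 1.89% and 3.61%. The summed RNA level of the list was 1377 CPM in siblings and 1278 CPM in mutants, below that of siblings although most genes lay above 0. serpinh1b, the collagen chaperone Hsp47, had 299 and 1125 RNA counts, a log2 ratio of 1.62 (1.43 to 1.81), and 1.34 (0.88 to 1.88) in footprints. p4ha1b, a subunit of the prolyl 4-hydroxylase that stabilises the triple helix, had 204 and 644 RNA counts, a log2 ratio of 1.36 (1.14 to 1.60), and 1.49 in footprints. fkbp11, a prolyl isomerase of the endoplasmic reticulum, had 500 and 146 RNA counts, 0.239 times its sibling level (0.197 to 0.287). Its footprints stood at 0.721 times the sibling level (0.564 to 0.931), and its translation efficiency was higher, at 1.59 (1.16 to 2.03). p3h2, a prolyl 3-hydroxylase, had a translation efficiency 2.14 times its sibling value, from 70 and 341 footprint counts. The abundant folding genes ppib, a prolyl isomerase, and pdia3, a disulfide isomerase, had RNA log2 ratios of -0.30 and -0.85 and footprint log2 ratios of 0.35 and 0.08.

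Genes of export from the endoplasmic reticulum stayed near the median gene, with 5 of 17 above 0 in RNA (median -0.17) and 7 of 16 in footprints (median -0.01). sec13, a coat protein of the export vesicles, and kdelr2a, a receptor that returns escaped proteins, had RNA log2 ratios of -0.18 and -0.25. In RNA 0 of 17 were higher and 1 lower, against 3.14% and 6.16% of all genes. The gene called was creb3l3a, with 89 and 46 RNA counts and a log2 ratio of -1.24 (-1.79 to -0.72). It encodes a membrane-bound transcription factor and not a part of the export machinery, and its link to collagen export was not tested.

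Processing and cross-linking genes act on procollagen after secretion. Of 16 measured in RNA 13 lay above 0 (median 0.55), 3 were higher and 0 lower, against 3.14% and 6.16% of all genes, and of 17 in footprints 16 lay above 0 (median 0.61). loxl1, a lysyl oxidase that cross-links collagen and elastin, had 682 and 2142 RNA counts, a log2 ratio of 1.36 (1.23 to 1.48), and 1.03 (0.83 to 1.24) in footprints. Its relative loxl2a had 426 and 1305 RNA counts and a log2 ratio of 1.32 (1.16 to 1.48). Enhancers of procollagen C-proteinase had RNA log2 ratios of 1.36 for pcolce2a, 0.71 for pcolce2b and 0.44 for pcolcea, of which only pcolce2a passed 2-fold.

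Matrix proteins that bind collagen fell on both sides, with 19 of 33 above 0 in RNA (median 0.12). fn1b, a fibronectin gene, had 7405 and 40426 RNA counts, the highest ratio of this list at 2.15 (2.12 to 2.19), and 1.45 (1.36 to 1.54) in footprints. efemp2a, a fibulin that recruits lysyl oxidase, had an RNA log2 ratio of 1.69 (1.52 to 1.86), while mfap4 had -1.15 (-1.64 to -0.68). mfap4 was listed by its name, that of a microfibril-associated protein, and the cells it came from were not tested. mfap2, also named for microfibrils, was higher in footprints at 1.36 (0.67 to 2.19) from 18 and 126 counts. The abundant genes sparc, a collagen-binding protein of bone and basement membrane, and postnb, a periostin, had RNA log2 ratios of -0.29 and 0.23.

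Of 31 measured basement membrane partners 3 were higher and 1 lower in RNA, against 3.14% and 6.16% of all genes, and 25 lay above 0 with a median of 0.55, beside the type IV collagens with 1 of 5 above 0 and a median of -0.16. lama2, the laminin alpha2 chain of muscle, had 51 and 178 RNA counts, 2.83 times its sibling level (2.07 to 3.97), but 1.13 times (0.999 to 1.29) in footprints. frem3, of the Fras1-related matrix proteins, had an RNA log2 ratio of 1.23 (1.08 to 1.37) and a translation efficiency of -1.16 (-1.35 to -0.96). lama3, a laminin chain of skin, had 300 and 167 RNA counts and a log2 ratio of -1.14 (-1.42 to -0.86). nid1a, a nidogen that links laminin to collagen IV, had 2651 and 2289 RNA counts and a log2 ratio of -0.51 (-0.59 to -0.42).

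Collagen receptors were above 0 in 14 of 17 genes in RNA (median 0.39) and in 12 of 16 in footprints (median 0.28). The integrin alpha11 genes, receptors for fibrillar collagen on fibroblasts, led the list. itga11a had 248 and 568 RNA counts, a log2 ratio of 0.90 (0.68 to 1.12), and 1.46 (1.09 to 1.87) in footprints, and itga11b had 41 and 116 RNA counts, 2.29 times its sibling level (1.60 to 3.38). Their partner subunit genes itgb1b and itgb1b.1 had RNA log2 ratios of 0.83 and 0.35.

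**Figure D5:**
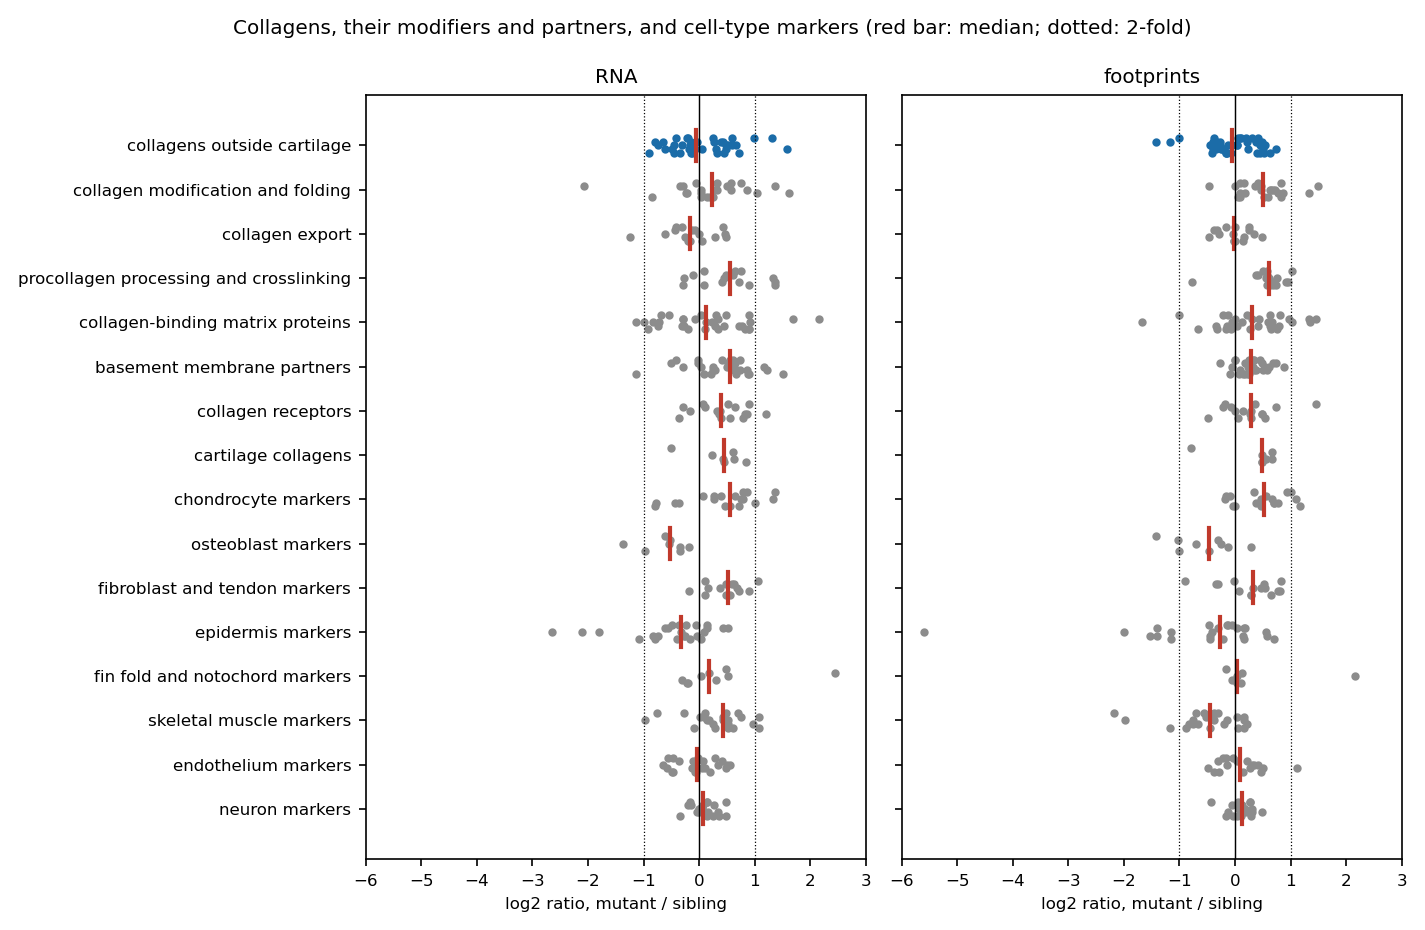
Log2 ratio of mutant to sibling of each measured gene of the collagens outside cartilage (blue) and of the lists of collagen modifiers, partners, receptors and cell-type markers (grey), in RNA (left) and footprints (right). Red bars mark the median of a list and dotted lines 2-fold. The collagen median lies near 0 in both assays, those of modification and folding (0.50) and of processing and cross-linking (0.61) lie to its right in footprints, and that of osteoblast markers (-0.53 in RNA) to its left.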

How the data were processed

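RNA-seq and Ribo-seq of sibling and noc4l mutant heads at 5 dpf were used, with 1 library in each of 4 groups. The authors deposited, for each gene and library, an estimated count with FPKM (RNA-seq) or TPM (Ribo-seq). HISAT2 and featureCounts are named in the submitters' processing notes. The sources used here give no version, genome build or annotation. The deposited fold changes, p-values and FDR of the authors' own comparison were not used.

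Symbols were those of the Ribo-seq table, matched by ID, and for IDs without one those of a gene name table. A row without a gene ID (0.00303% of sibling and 0.000746% of mutant footprint counts) was left out. The 4 libraries differed in depth as given in the report, and small counts have wide intervals. Counts were scaled with edgeR 4.0.16 under R 4.3.3. The TMM factors were 0.972 (sibling) and 1.03 (mutant) in RNA-seq, and 0.781 and 1.28 in Ribo-seq. Log2 ratios were taken from CPM with 0.5 counts added, with exact conditional binomial 95% intervals from counts rounded to whole numbers. Intervals of translation efficiency and of ratios between genes came from the Poisson error of the 4 counts, and ratios between genes were also given per length, from FPKM or TPM. The minimum of 100 counts left 17243 genes for RNA, 15729 for footprints and 14455 for translation efficiency. The method was tested on simulated data. Calculations used Python 3.11.15 with scipy 1.17.1, pandas 2.3.3 and numpy 2.4.6. Figures were drawn in matplotlib 3.10.9. DESeq2 1.42.0 gave an alternative scale.

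Named were, in each class, the 6 members with the highest sibling FPKM among those with at least 100 RNA counts, every member past 2-fold, members under the minimum, and partner chains. Other members were added after their values were seen. Of each list of modifiers, partners and receptors the 2 most abundant genes and up to 4 with the largest ratio past 2-fold were named, except a gene that is not reported here. Of 337 genes in 15 lists, 319 were found. Cell-type marker lists are described by counts and medians. The members and lists were chosen with earlier results of these data known. Alternatives were total counts, DESeq2 size factors, TMM without abundant loci, a minimum of 10 counts, FPKM and TPM with 1 added, 5 counts added, and a fold of 1.5.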

Additional observations from a re-analysis of the deposited data

How the results depend on the processing

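Of 116 log2 ratios of single collagen genes, all 116 moved by less than their counting interval under DESeq2 size factors and with 5 counts added. TMM without the abundant loci left RNA as it was, because no such locus was in RNA-seq, and moved the others by less than that interval, while a minimum of 10 counts cannot move a ratio. With total counts as the scale 93 moved by more than the interval, and with the deposited FPKM and TPM 92 did. A further 2, called footprint ratios, changed sign, those of col4a3 (to 0.12) and col28a1a (to 0.077). Counting uncalled members too, the sign was kept with FPKM and TPM in 35 of 38 members in RNA, 21 of 41 in footprints and 17 of 37 in translation efficiency. Total counts kept it in 36, 23 and 18. Footprint ratios above 0 numbered 38 of 41 with total counts and 40 with TPM, against 20 under TMM. The changes of sign in footprints, those of col4a3 and col28a1a included, thus went with a shift of most members. Members called in RNA numbered 4 in place of 2 with a minimum of 10 counts (3284 of 22579 over all genes), 4 with FPKM (1205 of 17243) and 11 at a fold of 1.5 (3870 of 17243). In footprints 12 in place of 3 were called with total counts (3674 of 15729 over all genes) and 18 with TPM (7132 of 15729), all higher and none shared with the 3, and 5 at a fold of 1.5 (2514 of 15729). In translation efficiency 4 in place of 1 were called with total counts (3009 of 14455 over all genes), 2 with a minimum of 10 counts (2911 of 20132), 12 with FPKM and TPM (5292 of 14455) and 7 at a fold of 1.5 (3130 of 14455). Calls of list genes, summed over RNA, footprints and translation efficiency, numbered 197 in place of 76 with total counts. A gene called in more than 1 comparison counts more than once in these sums. Over all genes, total counts called 3474 footprint ratios higher and 200 lower in place of 298 and 568, and 2889 translation efficiencies higher and 120 lower in place of 513 and 460. Total counts include the abundant loci, of which the largest held 31.5% of sibling and 8.56% of mutant footprint counts. No paired analysis was possible because each group held 1 library, and for the same reason no library could be left out.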

Other observations

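The RNA-seq table also annotated 20 gene IDs with collagen names that the symbol rule did not take, because the Ribo-seq table gives them other names or lacks them. An ID annotated as Col23a1, a transmembrane collagen, had 194 and 506 RNA counts in the sibling and mutant libraries and 138 and 497 footprint counts. An ID annotated as Col6a6, a collagen VI chain, had 973 and 725 RNA counts and 35 and 69 footprint counts. An ID annotated as COL1A2 had 269 and 454 RNA counts and 88 and 306 footprint counts. It was not part of the collagen I values, and its RNA count was higher in the mutant library, unlike those of col1a1a, col1a1b and col1a2. All of these IDs were singled out after their values were seen, and these names were not checked against a sequence.

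Neuron markers lay above 0 in 16 of 22 measured genes in RNA (median log2 ratio 0.07) and in 18 of 23 in footprints (median 0.13). Fin fold and notochord markers did so in 6 of 9 (median 0.18) and 6 of 8 (median 0.04). Of the 9 genes of the latter list, 1 was higher by 2-fold in RNA and 0 lower, against 3.14% and 6.16% of all genes. This gene, mmp13a, a collagenase gene, had 72 and 484 RNA counts, 5.46 times its sibling level (4.27 to 7.12). Its footprints stood at 4.46 times the sibling level (3.43 to 5.92). It was named after its values were seen, and the cells it came from were not tested.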
